A study of Homo sapiens with 11 samples.

Results

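Among the Ikaros peaks of JM1 cells treated with CX-4945, 3766 sites had a peak in treated Nalm6 cells too and none in the 3 untreated lines. They are the peaks of the treated JM1 list on chromosomes 1 to 22 and X that overlapped a peak of the treated Nalm6 list by at least 1 bp and overlapped no peak of the untreated JM1, REH or 697 lists. The 3766 sites made up 4.25% of the 88622 treated JM1 peaks on those chromosomes. The sites were chosen by the presence and absence of peaks in these same lists, so their absence from the untreated lists is a definition and not a result, and the values below describe them without a test. They are called treated-pair sites here.

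Ikaros, the zinc finger protein encoded by IKZF1, is a DNA-binding regulator of lymphoid development and a tumor suppressor in B-cell acute lymphoblastic leukemia (B-ALL). It binds DNA with a GGGAA core, both activates and represses genes, and is found at the pericentromeric chromatin of lymphoid cells. The protein kinase CK2 phosphorylates Ikaros, which lowers its binding to DNA, and CX-4945 (silmitasertib) is a small molecule that inhibits CK2.

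Chromatin immunoprecipitation with sequencing (ChIP-seq) against Ikaros was done in JM1, REH, 697 and Nalm6, established lines of human B-cell precursor leukemia. JM1 was studied untreated and after 1 day in 20 µM CX-4945, Nalm6 only after 1 day at that dose, and REH and 697 only untreated. By the labels, JM1 and REH libraries used the Bethyl antibody A303-516A, whereas an affinity-purified anti-Ikaros antibody was used in 697 and Nalm6. There were 6 Ikaros libraries, 2 of them from Nalm6, and 5 input libraries, with 1 peak list per condition. No untreated Nalm6 list was analysed here, so for Nalm6 the effect of the drug and the line cannot be told apart, and no difference between lists has a replicate check. REH is known to carry the ETV6-RUNX1 fusion.

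The untreated lists differed in length, with 37419 peaks in JM1, 83516 in REH and 19610 in 697 on the chromosomes used, beside 70866 in treated Nalm6. A site free of untreated peaks is therefore one that these 3 lists, at their own depths and call settings, did not hold. Each peak carries a whole-number score given by the authors, at least 10 in all 5 lists, which ranks peaks within a list. A percentile below is the share of a list's peaks at or under that score.

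The sequences under the sites differed in kind, and 6 windows, chosen by rank or by motif, are shown as examples. Each is 300 bases of the GRCh38 plus strand at the centre of the treated JM1 peak, with GGGAA or its reverse complement TTCCC in capitals. The first 4 come from sites with the highest rank in both lists. The last 2 come from sites at genes of the B-cell lists described further on, chosen because their window holds TGGGAA. Windows that touch an annotated UTR are not shown, and those of PRKCE and ETV6 are not shown because the Nalm6 peak covered 0 of their 300 bases. The window of 1 more high-ranked site is not reported here, so the windows shown are not a count of how often a feature occurs.
AL035414.1 site, chr1:210292345-210292644: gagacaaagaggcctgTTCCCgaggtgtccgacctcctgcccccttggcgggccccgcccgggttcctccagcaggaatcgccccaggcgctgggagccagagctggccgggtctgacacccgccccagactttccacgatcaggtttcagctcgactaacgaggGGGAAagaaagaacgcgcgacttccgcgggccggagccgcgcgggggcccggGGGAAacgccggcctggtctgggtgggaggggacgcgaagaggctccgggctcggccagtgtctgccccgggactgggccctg
SHISA5 site, chr3:48473248-48473547: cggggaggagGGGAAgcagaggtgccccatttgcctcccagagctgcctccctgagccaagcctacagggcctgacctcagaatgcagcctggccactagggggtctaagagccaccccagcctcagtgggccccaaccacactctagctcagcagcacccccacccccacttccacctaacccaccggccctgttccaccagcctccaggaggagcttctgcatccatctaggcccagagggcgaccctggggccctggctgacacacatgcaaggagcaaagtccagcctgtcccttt
PCDHAC2 site, chr5:141014440-141014739: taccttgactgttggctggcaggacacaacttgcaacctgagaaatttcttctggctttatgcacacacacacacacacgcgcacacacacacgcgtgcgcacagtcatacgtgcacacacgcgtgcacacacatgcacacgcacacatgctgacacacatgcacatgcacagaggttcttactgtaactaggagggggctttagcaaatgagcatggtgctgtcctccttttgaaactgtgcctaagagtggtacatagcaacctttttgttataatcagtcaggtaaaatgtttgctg
AL358216.1 site, chr10:633249-633548: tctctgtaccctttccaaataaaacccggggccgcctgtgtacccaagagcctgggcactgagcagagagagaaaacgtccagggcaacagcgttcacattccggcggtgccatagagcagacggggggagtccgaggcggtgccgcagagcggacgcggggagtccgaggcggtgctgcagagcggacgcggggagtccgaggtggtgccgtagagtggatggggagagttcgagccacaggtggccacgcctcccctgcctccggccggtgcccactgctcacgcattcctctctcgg
ERG site, chr21:38544479-38544778: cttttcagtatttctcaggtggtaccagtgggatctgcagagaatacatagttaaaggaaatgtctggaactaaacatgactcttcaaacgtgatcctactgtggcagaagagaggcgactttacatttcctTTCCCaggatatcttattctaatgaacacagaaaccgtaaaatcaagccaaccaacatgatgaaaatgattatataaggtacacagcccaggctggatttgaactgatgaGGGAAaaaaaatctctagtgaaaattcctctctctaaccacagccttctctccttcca
SYK site, chr9:90889875-90890174: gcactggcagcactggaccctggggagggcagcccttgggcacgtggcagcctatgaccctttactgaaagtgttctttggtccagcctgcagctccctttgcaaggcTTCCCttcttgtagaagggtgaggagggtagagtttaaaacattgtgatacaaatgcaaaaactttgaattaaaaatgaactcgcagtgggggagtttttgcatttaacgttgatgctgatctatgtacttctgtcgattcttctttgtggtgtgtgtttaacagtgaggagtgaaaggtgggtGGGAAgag

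The AL035414.1 window held 3 GGGAA cores in DNA of 71% GC. The SHISA5 window held 1 core. The PCDHAC2 and AL358216.1 windows held 0, so a strong call in both treated lists was also made where these letters are not in the window. The PCDHAC2 window had a run of 46 bases in which purines and pyrimidines alternate, visible as repeated CA and CG. The ERG and SYK windows lay in DNA of 40% and 47.7% GC and held 2 cores each. In each, 1 core lay within TGGGAA, a common form of the Ikaros site, which was the condition for their choice and not a result.

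The sharing between the treated lists was low where the untreated lists had no peak. Of the 28821 treated JM1 peaks free of untreated peaks, the 3766 sites are 13.1% (95% exact Clopper-Pearson interval 12.7 to 13.5%; intervals here cover counting error only). Of treated JM1 peaks that overlapped 1 untreated list, 52% (51.5 to 52.6%) overlapped Nalm6. The share was 82.6% (82 to 83.2%) with 2 untreated lists and 97.3% (96.9 to 97.5%) with all 3. Peaks seen in more lists were also wider and higher scored, so the comparison was repeated among peaks 500 to 1000 bp wide with scores of 15 to 18, a band chosen after the data were seen. There the shares were 14.6% (13.1 to 16.2%), 46.4%, 65.6% and 86.4%, in the same order as before.

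**Figure D1:**
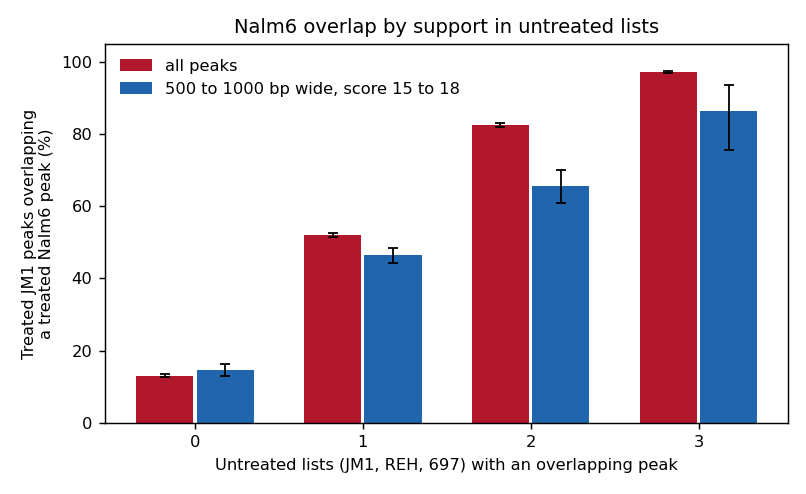
Share of treated JM1 peaks that overlap a treated Nalm6 peak, in percent, by the number of untreated lists with an overlapping peak, for all peaks (red) and for peaks of 1 band of width and score (blue). Bars show the share with its 95% exact Clopper-Pearson interval, and the red bars go from 13.1% with 0 untreated lists to 97.3% with 3.

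The Nalm6 list gave the same order from its own side. Of 15024 Nalm6 peaks free of untreated peaks, 31.1% (30.3 to 31.8%) overlapped a treated JM1 peak, against 85.8% (85.5 to 86%) of the 55842 that overlapped an untreated peak. In all, 3794 Nalm6 peaks touched a treated-pair site. For 92.1% (91.2 to 92.9%) of the sites the Nalm6 peak was itself free of untreated peaks.

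When the peaks of all 5 lists were merged into regions, 3458 regions were held by treated JM1 and treated Nalm6 and by no other list. This was not the largest such pair. Treated JM1 and untreated REH, which share the Bethyl antibody, held 11950 regions to themselves, and treated Nalm6 and untreated REH, which share neither antibody nor treatment, held 4417. Treated and untreated JM1 held 867. With each list limited to its 19652 highest-scored peaks, the number in the shortest list, the treated pair held 666 regions, below 1212 for treated JM1 and REH, 856 for Nalm6 and REH, and 760 for Nalm6 and 697. Treated and untreated JM1 held 640 with equal lists, close to the treated pair. The treated pair thus had the third rank of the 10 pairs with whole lists and the fourth with equal lists.

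**Figure D2:**
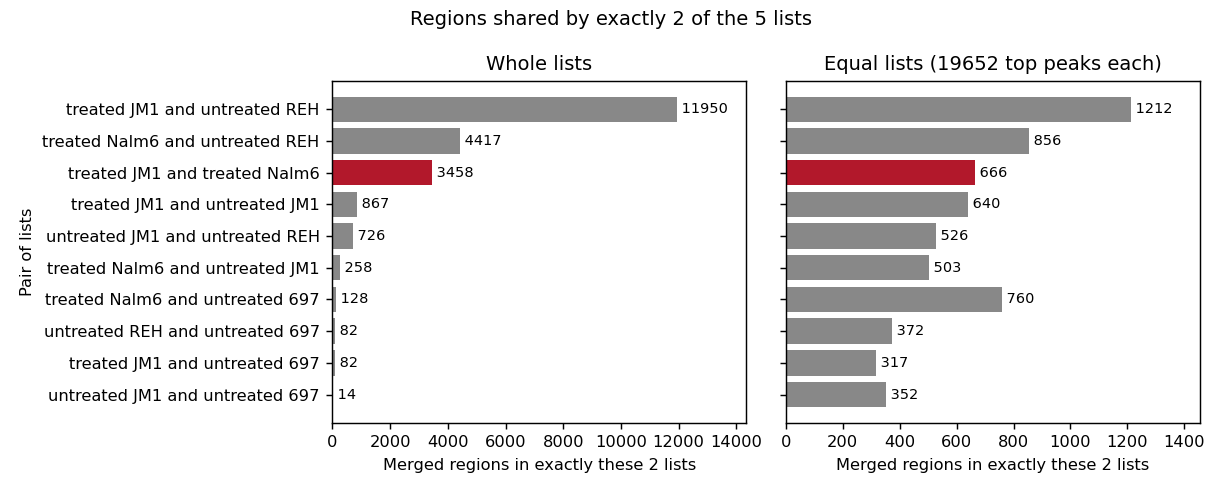
Number of merged regions found in exactly 2 of the 5 lists, for each of the 10 pairs, with whole lists (left) and with equal numbers of top-scored peaks (right). The treated pair (red) holds 3458 and 666 regions, and in both panels treated JM1 with untreated REH holds more.

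Treated-pair sites ranked mostly below the middle of both lists. In treated JM1 their median score was 16 (quartiles 13 and 20, range 10 to 69), percentile 42.7 of the list. In Nalm6 their median score was also 16 (quartiles 13 and 21, range 10 to 77), percentile 32.4. Only 567 sites (15.1%, 13.9 to 16.2%) scored at or above the median of both lists, and 4 were in the top 10% of both. Scores in the 2 lists ran only weakly together over the 3766 sites, with a Spearman correlation of 0.17. Over the 41166 other treated JM1 peaks that overlapped Nalm6 it was 0.51. These correlations are across peaks of the same 2 lists and share their depths and base composition. The sites spanned a narrow range of scores, up to 69 in treated JM1 against 2101 over the whole list. The part of that range in the lower correlation was not tested.

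**Figure D3:**
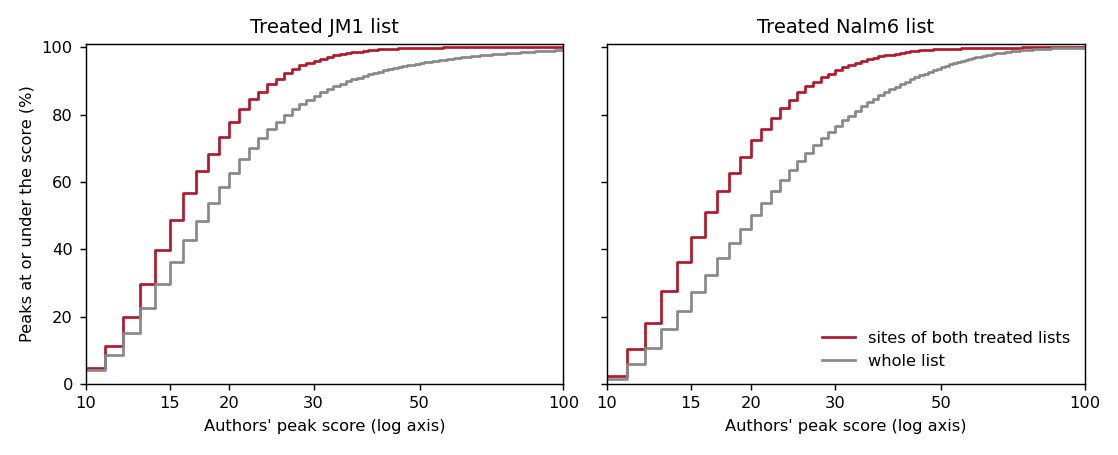
Cumulative share of peaks, in percent, at or under each score of the authors (log axis), for the treated-pair sites (red) and for the whole list (grey), in treated JM1 (left) and treated Nalm6 (right). The red curves lie above the grey ones at nearly every score shown, with a median of 16 for the sites in each list beside 18 for the treated JM1 list and 20 for the Nalm6 list.

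The sites were narrower than most treated JM1 peaks, with a median width of 806 bp (quartiles 467 and 1371) against 1185 bp over the whole list. The 25055 treated JM1 peaks found in no other list were narrower still, at 651 bp. The 31068 treated JM1 peaks shared with untreated REH, but with neither untreated JM1 nor 697, had a median width of 1200 bp. These 2 sets are the comparisons used from here on, named treated-JM1-alone and REH-shared.

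At a typical site the overlap with Nalm6 was 333 bp (quartiles 248 and 532), 49.2% of the JM1 peak, and the peak centres lay 271 bp apart. At 1861 of the 3766 sites at least 50% of the JM1 peak was covered. The authors' annotation gave the same class in both lists for 90.3% of sites and the same nearest gene for 98.2%. At the edges of the rule, 29 sites overlapped Nalm6 by 10 bp or less (median score 13) and 19 lay within 10 bp of an untreated peak (median score 16). Just outside it, 19 untreated-free treated JM1 peaks came within 10 bp of a Nalm6 peak (median score 13), and 12 Nalm6-overlapping peaks had 10 bp or less of untreated overlap (median score 15.5).

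Untreated peaks were often near. The median gap from a site to the nearest untreated peak was 4114 bp, and 14.8% (13.7 to 16%) of sites had one within 1000 bp. In the treated-JM1-alone set the gap was 6435 bp and the share 9.04% (8.69 to 9.41%). By list, the median gap was 4617 bp to REH, 17700 bp to untreated JM1 and 44850 bp to 697, the order of the lists from longest to shortest.

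Most sites lay far from promoters. By the authors' classes, 43.5% (41.9 to 45.1%) were in introns, 37.3% (35.8 to 38.9%) intergenic, 7.59% (6.77 to 8.49%) at promoters, 6.03% in exons and 5.55% at transcript ends. The promoter share was above the 5.02% (4.75 to 5.3%) of treated-JM1-alone peaks and below the 12% (11.7 to 12.4%) of REH-shared peaks and the 16.1% of the whole treated list. In the 16467 REH-shared peaks that also overlapped Nalm6, the promoter share was 14% (13.4 to 14.5%). Of the sites, 67.3% (65.8 to 68.8%) had their centre over 10 kb from the start of a protein-coding gene, with a median distance of 22196 bp. That distance was 23509 bp for treated-JM1-alone and 13810 bp for REH-shared peaks. By rank, the promoter share of the sites ran from 6.16% (4.71 to 7.89%) in the lowest quartile of the lower of the 2 percentiles to 10.2% (8.33 to 12.3%) in the highest.

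In base composition the sites lay between the treated-JM1-alone and the REH-shared peaks. The median GC content of the central 200 bases was 54.5% (interval 54.5 to 55%), against 51% for treated-JM1-alone and 55.5% for REH-shared peaks. The ratio of observed to expected CpG was 0.229, between 0.193 and 0.255 in those sets. In the REH-shared peaks that also overlapped Nalm6 the GC content was 57% and the ratio 0.28, both above the sites. The highest quartile of sites by rank had a median GC of 57%, and the lowest 53.2%.

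12 short motifs were counted on both strands of the central 200 bases. TGGGAA was in 21.3% (20 to 22.6%) of sites, 19.5% (19 to 20%) of treated-JM1-alone peaks, 20.4% (20 to 20.9%) of REH-shared peaks and 19.3% (19 to 19.5%) of all treated JM1 peaks. The sites' interval met those of the treated-JM1-alone and REH-shared peaks and lay just above that of all treated JM1 peaks. The shorter GGGAA, which TGGGAA contains, was in 51.1% (49.5 to 52.7%) of sites, 46.7% of treated-JM1-alone and 51.3% of REH-shared peaks. By rank, TGGGAA was in 19.2% (16.7 to 21.9%) of the highest quartile of sites and 21.8% (19.2 to 24.5%) of the lowest.

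CAGCTG, an E-box bound by E proteins such as TCF3, was in 18.1% (16.9 to 19.4%) of sites, against 12.7% (12.3 to 13.1%) of treated-JM1-alone, 16.4% (16 to 16.8%) of REH-shared and 14.9% (14.6 to 15.1%) of all treated JM1 peaks. In the 16467 REH-shared peaks that also overlapped Nalm6, the set most like the sites, it was in 17.1% (16.5 to 17.7%), an interval that met that of the sites. In windows of 50 to 60% GC, a limit added after the data were seen, the share was 18.2% (16.5 to 20%) in the sites, 15.7% (15.1 to 16.4%), 16.5% (16 to 17.1%) and 15.9% (15.6 to 16.3%). At that composition the interval of the sites met that of the REH-shared peaks. The GC-rich SP/KLF motif GGGCGG was in 9.75% (8.82 to 10.7%) of sites, between 5.11% in treated-JM1-alone and 11.5% in REH-shared peaks, and below 15.1% in the whole list. With 50 to 60% GC it was in 6.92% (5.85 to 8.13%) of sites, 6.38% (5.96 to 6.82%) of treated-JM1-alone and 8.61% (8.18 to 9.06%) of REH-shared peaks. There the sites' interval met that of the treated-JM1-alone peaks and lay below that of the REH-shared peaks. In the REH-shared peaks that also overlapped Nalm6, GGGCGG was in 14.4% (13.8 to 14.9%), and with 50 to 60% GC in 9.83% (9.18 to 10.5%). The GATA motif AGATAA was in 5.76% (5.04 to 6.55%) of sites and 8.22% (7.88 to 8.57%) of treated-JM1-alone peaks, and with 50 to 60% GC in 3.96% (3.15 to 4.92%) and 4.7% (4.33 to 5.08%).

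The RUNX motif TGTGGT was in 14.9% of sites and of treated-JM1-alone peaks and in 13.6% of REH-shared peaks. NF-Y (CCAAT) was in 19.6% (18.4 to 21%) of sites, 22.3% (21.8 to 22.9%) of treated-JM1-alone and 19.3% of REH-shared peaks. The CTCF core AGGGGGC was in 6.03% (5.29 to 6.84%) of sites, 3.92% (3.69 to 4.17%) of treated-JM1-alone and 6.72% of REH-shared peaks. For both, the sites' interval met that of the REH-shared peaks and not that of the treated-JM1-alone peaks. In the REH-shared peaks that also overlapped Nalm6, NF-Y was in 18.1% (17.5 to 18.7%) and the CTCF core in 7.55% (7.15 to 7.96%). There the sites' interval met that for NF-Y and lay below that for the CTCF core. AP-1 (TGANTCA) was in 4.78%, the MYC E-box CACGTG in 3.08%, ETS (CCGGAAG) in 1.25% and the palindromic EBF1 motif in 0.743%. In all treated JM1 peaks these last 4 shares were 4.45%, 3.94%, 2.05% and 0.948%. The EBF1 letters can overlap an Ikaros core.

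**Figure D4:**
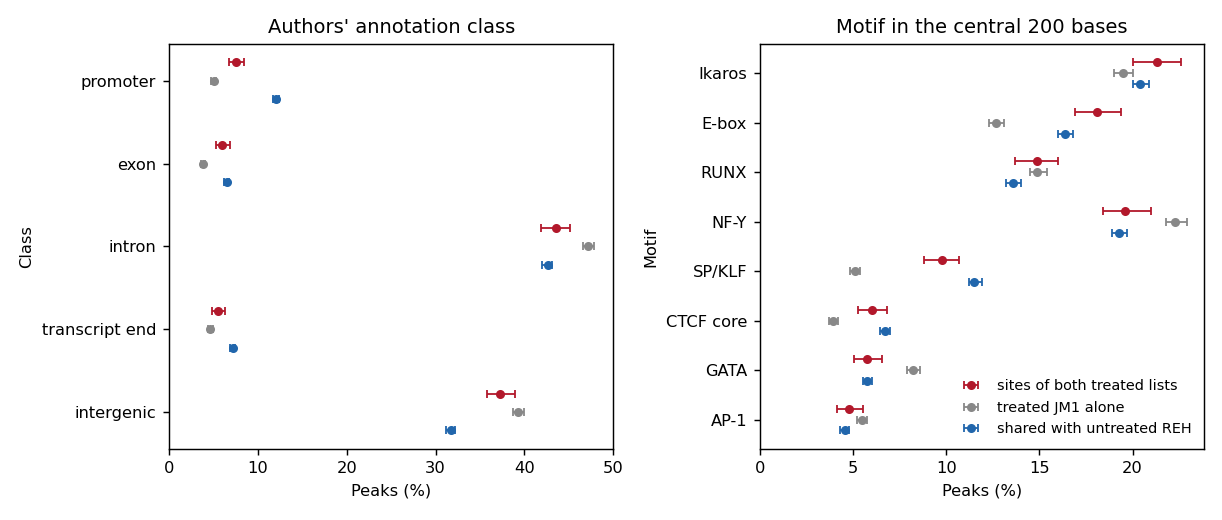
Share of peaks, in percent with 95% exact Clopper-Pearson intervals, in each annotation class of the authors (left) and with each of 8 motifs in the central 200 bases (right), for treated-pair sites (red), treated JM1 peaks of no other list (grey) and treated JM1 peaks shared with untreated REH (blue). The sites lie between the other sets for promoters (7.59% between 5.02% and 12%) and, with windows of any GC content as drawn, for SP/KLF. For the E-box they are at 18.1%, and the REH-shared peaks that also overlap Nalm6, which are not drawn, are at 17.1%.

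The 10 sites with the highest rank in both lists were a mixed group. The first, intergenic and nearest to AL035414.1, scored 42 in treated JM1 and 52 in Nalm6, and the start of HHAT, the Hedgehog acyltransferase, was 35758 bp away. The RMC1 site scored 50 and 45 and was intergenic, 4170 bp from the start of RMC1, which acts in RAB7 activation on late endosomes. At promoters were the SHISA5 site (scores 38 and 46), the AGPAT4 site (38 and 50) and the RPL31P2 site (36 and 42), whose nearest protein-coding start is that of ZNF341 at 89 bp. AGPAT4 makes phosphatidic acid and ZNF341 is a transcription factor that acts on STAT3.

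The AGPAT4 site had wide surroundings free of untreated peaks, with gaps of 17027 bp to REH and 132854 bp to untreated JM1. The RMC1 site had untreated peaks of all 3 lines 3331 to 3982 bp away. The PCDHAC2 site, beyond the protocadherin alpha cluster, scored 42 and 41, and the AL358216.1 site, in an intron of DIP2C, 40 and 41. The PRKCE site, in a gene for protein kinase C epsilon, scored 33 and 55, but its overlap was 326 bp of a 2101 bp peak. The SPTBN4 site (46 and 40, overlap 369 of 3025 bp) and the CD46P1 site (45 and 40) completed the 10.

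The promoter-class sites named next were picked by their treated JM1 score alone, which favours high scores in that list only. No other class was picked in this way, so their Nalm6 scores describe no trait of promoters. The 10 highest in treated JM1 scored 39 to 69 there and 14 to 34 in Nalm6. The DMBT1P1 site, at a pseudogene, had the highest JM1 score of all sites, 69, and 28 in Nalm6. The ZSCAN30 site, at a zinc finger gene, scored 56 and 15, and the ECT2L site 51 and 34. MRPS31, a mitochondrial ribosomal protein gene, and CIAO2A, of the cytosolic iron-sulfur assembly machinery, each had a site with 41 in treated JM1 and 14 in Nalm6. The MAP3K13 site, at a MAP kinase kinase kinase gene, scored 39 and 28, with an untreated REH peak 671 bp away. The ITSN1, AC004972.1, EFCAB7 and PABPC1P4 sites completed that group.

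The sites were spread over many genes. They were nearest to 3186 gene names, 8.75% of the 36417 names in any list, and to 1513 protein-coding names, 9.01% of 16794. Of these names 2781 had 1 site and 14 had 5 or more. Y_RNA (33 sites), Metazoa_SRP (10) and U3 (5) are names shared by many small RNA loci across the genome. Among single loci, PCSK6, a proprotein convertase gene, and LINC00511, a long noncoding RNA gene, had 7 sites each. SMOC2 (an extracellular matrix protein) and FAM189A1 (now ENTREP2) had 6 each, and ETV6, P2RY8, DPP6, TNS3, SDK2 and LINC01654 had 5 each.

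Genes with many sites also had many other peaks. At PCSK6, with 7 sites, there were 28 treated JM1, 23 Nalm6 and 27 REH peaks nearest to it, but 3 untreated JM1 peaks and 1 in 697. Its sites scored 10 to 21 in treated JM1 and 13 to 24 in Nalm6. TNS3 had 5 sites among 47 treated JM1 peaks and 55 REH peaks. ETV6 differed from PCSK6 and TNS3, with 5 sites among 15 treated JM1 peaks, 8 Nalm6 peaks, 2 untreated JM1 peaks, 3 in REH and 1 in 697. It was not alone in this. CRLF2 was the nearest gene of 4 sites among 11 treated JM1 peaks, with 3 untreated JM1 peaks, 1 in REH and 0 in 697. Only 1 of these sites lay within the gene, and the others were intergenic, 30719 to 100711 bp from its start. Of the treated JM1 peaks nearest to each gene, the share that were sites was 33.3% for ETV6, 36.4% for CRLF2 and 37.5% for FAM189A1.

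ETV6 encodes an ETS-family repressor needed in blood stem cells and often rearranged or deleted in B-ALL. The 5 sites nearest to it scored 24, 23, 23, 14 and 24 in treated JM1, in order along the chromosome, and 20, 14, 11, 36 and 12 in Nalm6. The first 4 lay within ETV6, and the fifth was intergenic, past the end of the gene at position 11895377. The last 4 of the 5 sites lay in a 220 kb stretch, chr12:11813402-12033125, with 0 peaks in the 3 untreated lists, 11 in treated JM1 and 7 in Nalm6. This stretch also runs past the end of the gene. Over the chromosomes used, 2 stretches between neighbouring untreated peaks held 4 or more sites, and the other, on chromosome 19 from 28427775 to 28502047, held 4 sites among 5 treated JM1 and 6 Nalm6 peaks. These stretches were singled out after their values were seen. The copy number of ETV6 in these lines, and its part in where peaks were called, was not tested.

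P2RY8, a G protein-coupled receptor gene of germinal centre B cells, and CRLF2, a subunit of the TSLP receptor, are recurrent fusion partners in B-ALL. P2RY8 had 5 sites nearest to it, which scored 36, 16, 16, 11 and 11 in treated JM1 and 26, 26, 15, 11 and 13 in Nalm6. Of these, 4 lay within the gene and the last was intergenic. The first 2 overlapped the same Nalm6 peak, so its score of 26 is given for both. The third overlapped its Nalm6 peak by 36 of 1360 bp. CRLF2 had 4 nearest to it, with 30, 14, 13 and 19 in treated JM1 and 19, 13, 12 and 17 in Nalm6. Of these, only the last lay within the gene. P2RY8 also had 6 untreated JM1 and 7 REH peaks nearest to it.

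Both genes lie in the pseudoautosomal region PAR1, whose sequence is the same on X and Y. There, between positions 276322 and 2741309 of X, 30 of 189 treated JM1 peaks were treated-pair sites, or 15.9% (11 to 21.9%). On the rest of X downstream the share was 78 of 1610, or 4.84% (3.85 to 6.01%). Among untreated-free treated JM1 peaks it was 26.1% (18.3 to 35.1%) in PAR1 and 8.78% (7 to 10.8%) downstream. PAR1 was singled out after its values were seen. How reads that match both X and Y were placed is not stated in the labels or headers, and its part in these counts was not tested.

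**Figure D5:**
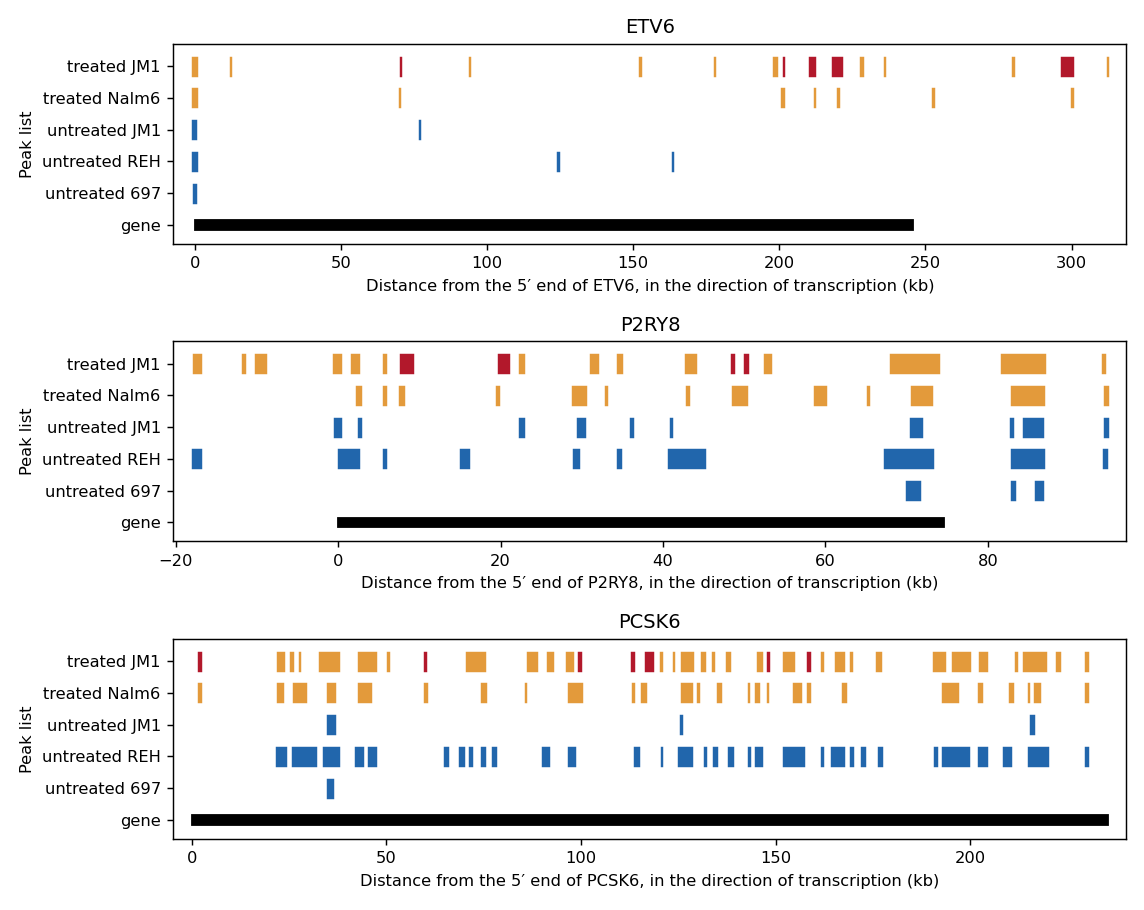
Peaks of the 5 lists around ETV6, P2RY8 and PCSK6, by distance in kb from the 5′ end of the gene in the direction of transcription (black bar: the gene). Treated-pair sites are red, other treated peaks orange and untreated peaks blue, and narrow peaks are drawn with a minimum line width; 4 of the ETV6 sites lie where the blue tracks are empty, whereas REH peaks run throughout PCSK6.

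Sites were found in runs at 10 places with 5 or more within 100 kb. PCSK6, the CACNA2D2, HEMK1 and C3orf18 region of chromosome 3, and P2RY8 with AKAP17A each had 6. Runs of 5 included those at LINC01654, GPATCH1 with LRP3 and WDR88, KCNK3 with CIB4, PHF21B, VIPR1 and a Metazoa_SRP copy in PAR1. Each of the 10 runs held peaks of the untreated lists as well, such as 16 REH peaks in both of the first 2.

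By chromosome, the share of treated JM1 peaks that were sites ran from 1.9% (1.49 to 2.39%) on chromosome 16, with 72 of 3785, to 6.33% (5.62 to 7.1%) on chromosome 3, with 270 of 4265. Taken only over untreated-free peaks, chromosome 16 was again lowest, at 8.91% (7.04 to 11.1%), and chromosome 22 highest, at 18.1% (15 to 21.4%). Chromosome X was high by the first measure (6.04%) and low by the second (10.9%).

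Gene lists of B-cell biology held sites at a minority of their members. Of 30 B-cell transcription factor genes, 5 (16.7%) were nearest to a site, beside the 8.75% of all names. They were ETV6, IRF4, ERG, KLF2 and ELK3. As shares of peaks, 10 of the 185 treated JM1 peaks at that list were sites, or 5.41%, near the 4.25% of the whole list. IRF4, which drives pre-B and plasma cell differentiation, had sites scored 20 and 14 in treated JM1 and 28 and 22 in Nalm6, both intergenic and downstream of the gene. The ERG site, in an intron of this ETS-family gene, scored 16 and 18, and its window was shown above. KLF2, a regulator of lymphocyte quiescence and homing, had a site scored 10 and 27, and that of ELK3 scored 16 and 11. PAX5 and EBF1, which set B-cell identity, had none.

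Among 26 pre-B cell receptor and surface genes with a peak in any list, 3 (11.5%) had sites (CRLF2, SYK and LYN), beside 8.75% of all names. As shares of peaks, 6 of the 94 treated JM1 peaks at that list were sites, or 6.38%, beside 4.25% of the whole list. CRLF2, in PAR1, was the nearest gene of 4 of these 6, of which 1 lay within it. SYK, the kinase downstream of the pre-B cell receptor, had an intronic site scored 15 and 12, whose window was shown above. LYN, a SRC-family kinase, had an intergenic one scored 10 and 11, near the lowest score of both lists. Of the 16 sites at genes of these 2 lists, 3 held TGGGAA in the central 300 bases.

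In the PI3K and inositol lipid list 4 of 31 genes (12.9%) had sites, beside 8.75% of all names, and 7 of 126 treated JM1 peaks (5.56%) were sites, beside 4.25% of the whole list. INPP5D, the lipid phosphatase SHIP1 that opposes PI3K, had 3, scored 15, 12 and 10 in treated JM1 and 30, 10 and 48 in Nalm6. INPP4A, another inositol lipid phosphatase, had 2 (23 and 16 in JM1, 19 and 16 in Nalm6), and MTOR and PIK3CG 1 each. The chromatin regulator list had sites at 6 of 30 genes (20%), but as a share of peaks, 7 of 157 (4.46%), it was near the 4.25% of the whole list. SUZ12, a core subunit of Polycomb complex PRC2, had a site 318 bp from its start (scores 16 and 27), and SMARCA4, the SWI/SNF ATPase, had one 76 bp from an annotated start (15 and 17) and a second upstream (16 and 33). CREBBP, HDAC9, ARID1B and HDAC5 had 1 each.

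Other lists are given beside the same 8.75% of all names and 4.25% of treated JM1 peaks. Sites lay at 1 of 16 BCL2 family genes (BID, with 2), or 6.25% of genes and 4.88% of peaks. Cytokine receptor, JAK-STAT and NF-kB genes had 1 of 29 (IL4R), 3.45% of genes and 0.962% of peaks. Cell cycle genes had 2 of 31 (CCND1 and MCM2), 6.45% and 2.38%. Glucose metabolism genes had 3 of 26 (GPI and INSR among them), 11.5% and 3.19%. Adhesion genes had 2 of 25 (CD99 and ICAM2), 8% and 2.41%. The 12 genes of CK2, PP1 and the Ikaros family had 0 sites among 37 treated JM1 peaks, and the 20 DNA damage genes had 0 among 43. With a share of 4.25% over the whole list, so few peaks would hold few sites. Over the 12 lists together 29 of 308 genes (9.42%) had a site, near the 8.75% of all names.

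Marker lists of other cell types were read the same way, with 5 of 85 genes (5.88%) nearest to a site. T cell markers had 4 of 19 (21.1%), beside 8.75% of all names. Of the 58 treated JM1 peaks at T cell markers, 4 (6.9%) were sites, beside 4.25% of the whole list. Both shares were the highest of any gene list read here, but they rest on 4 sites. CD247, CD6 and CD8A had 1 site each, scored 19, 14 and 10 in treated JM1 and 21, 22 and 15 in Nalm6, and the CD247 site was closer to the start of POU2F1. Neuron markers had 1 of 19, and myeloid, erythroid and liver, muscle and pancreas lists had 0 of 16, 0 of 15 and 0 of 16. A peak at a gene does not measure its expression.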

How the data were processed

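The 11 ChIP-seq libraries gave 1 deposited peak list per condition, matched to its group by line and treatment. Per the labels' protocols BBDuk trimmed the reads, and Bowtie2 2.3.4.3, MACS2 2.1.1, HOMER 4.10 and GRCh38 are named per the submitters' processing notes. Each peak carries a score, class and nearest gene made by the authors, per the file headers. The definition of the score, the call settings, the control and whether 1 or both Nalm6 Ikaros libraries entered the list are not given in these sources. Read depth was not analysed here, so list lengths are not amounts of binding.

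Overlaps (at least 1 bp) were computed in Python 3.11.15 and checked with bedtools 2.31.1, which also found 3766 sites. The overlap code was tested on simulated data. Sequence was read with pysam 0.24.0 from GRCh38, start sites from GENCODE release 44. Medians carry rank-based 95% intervals. No test was run, since each condition had 1 list. The sites, the 17 gene lists and the alternatives were chosen with earlier results of these data known. The genes named are the 10 highest sites by the lower of both percentiles, the names with the most sites, the 10 promoter-class sites with the highest treated JM1 score, list genes with a site, and runs of 5 or more sites within 100 kb. Some genes that this rule names are not reported here.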

Additional observations from a re-analysis of the deposited data

How the results depend on the processing

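No paired analysis was possible because each condition had 1 list and the lists carry no replicate numbers. Of 60 recomputed values, 31 stayed within their counting error or within 1.5 times the reported count, 29 moved and 0 reversed. These values are counts, shares and medians with no direction, so a reversal was not possible.

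With at least 50% of the JM1 peak covered by Nalm6 there were 1861 sites at 1707 gene names, 6.46% of untreated-free peaks, with a median width of 541 bp, a median GC of 56.3%, 41.6% in introns, 16% within 1000 bp of a start site and 52.4% with TGGGAA anywhere in the peak. CAGCTG was then in 20.9%. With both treated lists limited to peaks at or above their median score there were 567 sites at 548 names, 7.54% of untreated-free peaks, at median percentiles of 70.1 in treated JM1 and 66.2 in Nalm6. These were 635 bp wide with a GC of 56.9%, 11.3% at promoters, 40.4% in introns, 19% within 1000 bp of a start site, 55.4% with TGGGAA and 22.8% with CAGCTG. Both settings keep fewer sites by construction.

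The Nalm6 share of untreated-free peaks was 12.3% with no untreated peak within 1000 bp, and 12% with the Nalm6 peak also free of untreated peaks. Within 500 bp of a start site lay 9.56% of sites and within 2500 bp 22.1%, against 14.3% within 1000 bp. TGGGAA was in 61.4% of whole sites, GGGAA in 89.3%, and TGGGAA in 21.3% of the central 200 bases. The median GC was 54.3% over whole sites and 54.5% in those bases. With equal lists the treated pair held 666 regions to itself. The settings for CAGCTG and the width and score band were added after the data were seen. With 1 list per condition, depth and call settings limit every statement that a site is absent from a list.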
